A study of Mus musculus with 8 samples.

Results

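Lysosomal hydrolases and membrane proteins were followed as a set of 36 genes, taken from 19938 genes measured in mouse dendritic cells. The set holds genes of known lysosomal function, chosen with earlier results of these data known and with cathepsins left out, and each gene was read from its brightest probe set among those that the array annotation assigns to that gene alone. All 36 had a value, 35 from a single probe set and 1 (Arsb) from 2. The cells were myeloid dendritic cells of bone marrow and classical dendritic cells of spleen, separated by flow sorting, and each of 4 mice gave 1 array of each kind, so there were 2 groups of 4 arrays. All mice were 8 weeks old and of genotype CX3CR1-gfp/+, meaning that a green fluorescent protein gene sat in 1 allele of the fractalkine receptor gene, in both groups alike. The sources used here do not give the markers used for sorting. RNA was measured on Affymetrix mogene 1.0 ST arrays, after amplification from 100 pg to 2 ng of total RNA. Values are linear intensities per probe set and carry no detection call. An intensity can be set against that of the same gene on another array but not against that of another gene.

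The lysosome is the acidic compartment in which material taken up from outside, and worn-out parts of the cell itself, are broken down. Soluble hydrolases each cut 1 kind of bond in sugars, sulfate esters, lipids or peptides, activator proteins lift lipids out of membranes for them, and a coat of glycosylated membrane proteins such as Lamp1 and Lamp2 lines the organelle. A proton pump keeps the inside acidic, and transcription factors of the TFEB family raise many of these genes together. Macrophages are known for strong lysosomal degradation, whereas dendritic cells are known for slower degradation that spares antigen for presentation to T cells.

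TFEB family proteins bind a short palindromic element around the letters CACGTG. The RefSeq promoter windows (GRCm38.p6, 250 bases before to 50 bases after each start) covered 32 of the 36 genes. Aga, Galns, Asah1 and Npc1 are named only. CACGTG, searched on both strands, was present for 8 of 32 members (25%), against 8.09% of 27025 genes with a window. The longer form GTCACGTG, which contains CACGTG, was present for 7 of 32 members (21.9%), against 2.55% of all genes. TCACGTGA, which overlaps the other forms, was present for 2 members (6.25%), against 1.12% of all genes. A match describes the letters only and does not show that a factor binds there. The matches are printed because they tell apart members that share the element from those that lack it in this window. Each stretch lies upstream of the annotated start and is read on the strand of its gene, with CACGTG in capitals.
Lamp1: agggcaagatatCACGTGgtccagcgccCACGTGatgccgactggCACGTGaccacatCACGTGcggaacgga
Mcoln1: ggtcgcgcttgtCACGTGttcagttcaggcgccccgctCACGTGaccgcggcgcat
Gla, farther site: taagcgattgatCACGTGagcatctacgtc
Gla, nearer site: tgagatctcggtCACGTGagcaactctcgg
Glb1: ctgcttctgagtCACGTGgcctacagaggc
Naglu: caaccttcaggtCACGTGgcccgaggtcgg
Sgsh: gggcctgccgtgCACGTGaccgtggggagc
Arsa: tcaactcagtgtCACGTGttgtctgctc
Gaa: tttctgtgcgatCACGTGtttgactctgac

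The Lamp1 stretch (chr8:13159088-13159160, plus strand) held 4 copies within the 73 bases before the start. The Mcoln1 stretch (chr8:3500436-3500491, plus strand) held 2 copies, and the pair of Gla sites lay at chrX:134601215-134601244 and chrX:134601182-134601211 on the minus strand, inside the annotated span of Hnrnph2. Single copies lay in Glb1 (chr9:114401018-114401047, plus strand), Naglu (chr11:101070009-101070038, plus strand) and Gaa (chr11:119267811-119267840, plus strand). The single copies of Sgsh (chr11:119355522-119355551) and Arsa (chr15:89477425-89477452) are on the minus strand, inside the annotated spans of Slc26a11 and C230037L18Rik. Among these 8 genes, 5 were higher in bone marrow by the test described next and 3 (Gaa, Sgsh and Mcoln1) did not pass it. Among the 24 members without the element in this window, 15 were higher, 1 was lower and 8 did not pass.

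Most of the lysosomal genes were higher in bone marrow. Of 36 members, 22 were higher and 1 was lower at an adjusted p of 0.05 (limma, Benjamini-Hochberg over all 19938 genes), and 13 did not pass. Each test set 4 bone marrow arrays against 4 spleen arrays (n = 4 per group throughout), and errors of log2 differences are limma's standard errors (SE). Over all genes, 9.26% were higher and 9.2% lower by the same rule. With the dimmest 40% of genes left out, which kept all 36 members, the share of genes called higher was 14.5%. The median log2 difference, bone marrow minus spleen, was 0.40 over the members and -0.01 over all genes. Differences were mostly modest in size: 4 members (Pla2g15, Galc, Npc2 and Lamp2) were at least 2-fold higher, against 2.02% of all genes. The 4 bone marrow values all lay above the 4 spleen values for 24 members and all below for 2, which over all genes was so for 10.4% and 10.2%. Within mice, 24 members were higher in the bone marrow array of every one of the 4 animals, as were 15% of all genes, and 3 members (Ppt1, Gm2a and Arsb) were lower in all 4, as were 15.6% of all genes. Without bone marrow replicate 2, bone marrow replicate 3 or spleen replicate 4, the number called higher was 19.

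**Figure D1:**
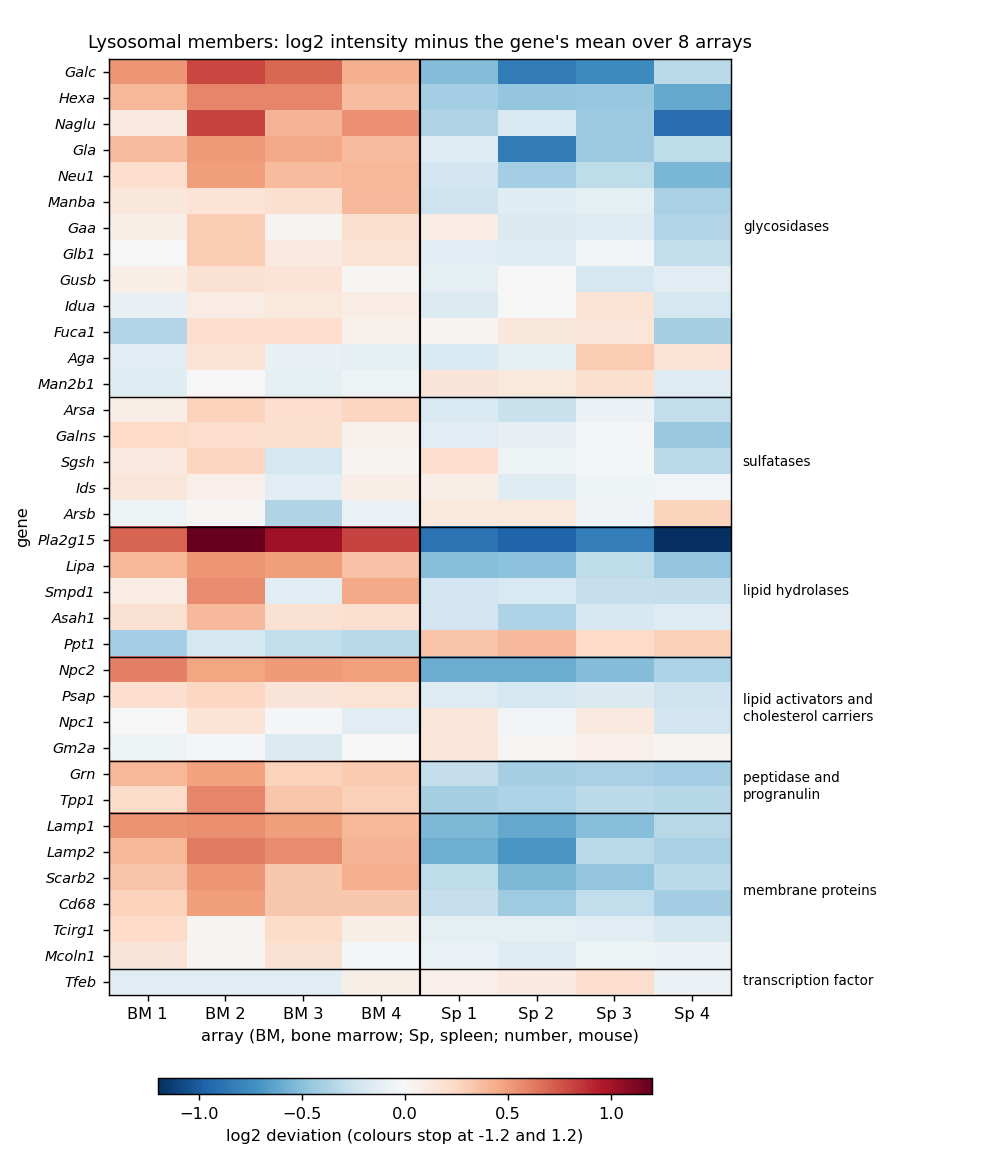
Each cell gives the log2 intensity of 1 gene on 1 array minus that gene's mean over the 8 arrays, with bone marrow arrays left of the line, spleen arrays right of it, and genes grouped by role. Most rows are red in bone marrow and blue in spleen, Ppt1 runs the other way, and bone marrow replicate 2 holds the highest bone marrow value of 25 of the 36 genes.

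The bone marrow arrays also held more signal from genes of other myeloid cells, read from marker lists chosen with earlier results of these data known. Of 12 macrophage markers 10 were higher and none was lower, with summed intensities from 23643 to 33645 in bone marrow and from 4029 to 4719 in spleen. All 10 neutrophil markers were higher (20736 to 28574 in bone marrow, 1446 to 1745 in spleen), as were 5 of 6 classical monocyte markers (13225 to 14838 in bone marrow, 3419 to 3946 in spleen). Of 7 non-classical monocyte markers 5 were higher (14646 to 20896 in bone marrow, 8421 to 10369 in spleen). Of 8 classical dendritic cell markers 6 were lower and none higher (28630 to 30950 in bone marrow, 35378 to 39934 in spleen). Among the lower ones was Zbtb46, a transcription factor of that lineage, with geometric means of 213.7 (bone marrow) and 520.0 (spleen). The sums weigh bright genes most, such as H2-Ab1, which did not pass. As mean log2 intensity the dendritic cell list read 10.79 to 10.99 in bone marrow and 11.47 to 11.72 in spleen. Smaller lists were mixed: 2 of 7 B cell markers were higher and 4 lower, 3 of 5 T and NK cell markers lower, 1 of 5 plasmacytoid markers higher and 3 lower, and 3 of 4 erythroid markers higher. No marker was at 0 on any array, but neither was any other probe set (lowest 5.17), and there is no detection call. Whether dim markers such as Klrb1c (geometric means of 32.22 in bone marrow and 35.11 in spleen) stood above background is unknown. The part of any of these cell types in the lysosomal differences was not tested. In such sorted bulk samples more cells of a type and more RNA per cell cannot be told apart.

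Glycosidases, which take sugars off the ends of glycolipids and glycans, were higher in 7 of 13 cases and lower in none. The list includes Aga, which is an amidase. Galc, which removes galactose from galactosylceramide, had intensities of 331, 401, 369 and 309 in bone marrow, against 160, 128, 135 and 184 in spleen, each in the order of replicates 1 to 4 as throughout. The groups were far apart, with a 2.34-fold higher mean in bone marrow (log2 difference 1.23 ± 0.12 SE, limma adjusted p = 9.3e-06). Hexa, the alpha chain of the hexosaminidase that cuts ganglioside GM2, read 4790, 5438, 5456 and 4678 in bone marrow, against 2734, 2635, 2652 and 2376 in spleen. Every bone marrow array was well above every spleen array (0.97 ± 0.08 SE, limma adjusted p = 2.8e-06). For Naglu, which acts on heparan sulfate, the values were 468, 757, 571 and 631 in bone marrow and 336, 378, 317 and 228 in spleen. Naglu was the least even of these genes between mice, with log2 differences within a mouse from 0.48 to 1.47 (pooled 0.95 ± 0.16 SE, limma adjusted p = 9.1e-04). Gla, the alpha-galactosidase that acts on globotriaosylceramide, had 260, 285, 274 and 260 in bone marrow, against 180, 112, 148 and 162 in spleen. Bone marrow arrays were nearly equal and spleen arrays spread, and Gla was 1.82-fold higher (adjusted p = 2.3e-04).

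The other 3 glycosidases past the threshold rose less. Neu1, a sialidase, was 1.67-fold higher (0.74 ± 0.09 SE, limma adjusted p = 7.4e-05) and Manba, the beta-mannosidase, 1.36-fold higher (adjusted p = 0.0031). Glb1, the beta-galactosidase that cuts ganglioside GM1 and serves as a common histochemical marker of lysosomes, was 1.23-fold higher (0.30 ± 0.09 SE, adjusted p = 0.034). That call ended when any 1 array other than bone marrow replicate 1 or spleen replicate 3 was left out (adjusted p from 0.064 to 0.11), with the mouse as a replicate block (adjusted p = 0.068) and with median centring (0.055). Gaa, which breaks down glycogen, had 597, 703, 583 and 651 in bone marrow and 607, 505, 511 and 446 in spleen, so the groups overlapped by 1 array (adjusted p = 0.066). Without spleen replicate 1 Gaa passed (adjusted p = 0.019). The remaining 5 did not pass: Gusb, the beta-glucuronidase, at 0.22 ± 0.08 SE (adjusted p = 0.079), Idua at 0.11, Fuca1 at 0.05, Aga at -0.08 and Man2b1 at -0.16. Their 95% intervals bound the difference: that of Idua, the iduronidase, ran from -0.10 to 0.31 on the log2 scale, and that of Man2b1, the alpha-mannosidase, from -0.35 to 0.03. Fuca1, the fucosidase, spanned 1453 to 2135 in bone marrow and 1407 to 2050 in spleen, and its interval ran from -0.27 to 0.36.

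**Figure D2:**
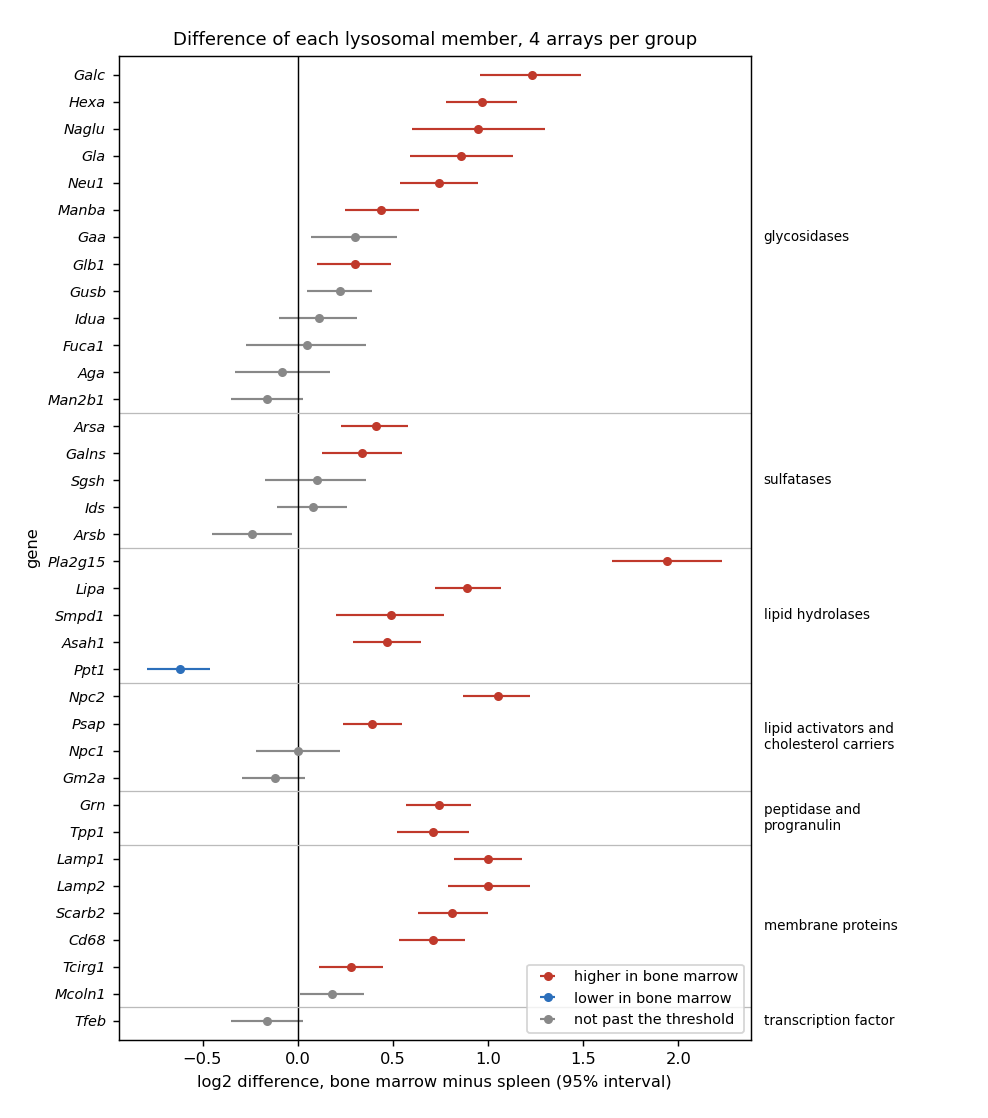
Points give the log2 difference of each member, bone marrow minus spleen, with limma's 95% interval (4 arrays per group), grouped by role and coloured by the call. The 22 red members lie right of 0, Ppt1 alone is blue at -0.62, and 13 grey members did not pass.

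Sulfatases, which remove sulfate groups and depend on a modifying enzyme encoded by Sumf1, were higher in 2 of 5 cases and lower in none. Arsa, which acts on sulfatide, had 402, 460, 435 and 453 in bone marrow, against 335, 315, 362 and 309 in spleen, with no overlap (0.41 ± 0.08 SE, limma adjusted p = 0.0031). Galns, which acts on keratan sulfate and chondroitin sulfate, had 616, 609, 600 and 547 in bone marrow, against 481, 492, 523 and 387 in spleen. The groups stood close, and the call of Galns (0.34 ± 0.10 SE, adjusted p = 0.027) was lost when bone marrow replicate 1, 2 or 3 or spleen replicate 4 was left out (adjusted p from 0.059 to 0.072). Ids, Sgsh and Arsb, which act in the breakdown of heparan and dermatan sulfate, did not pass, at log2 differences of 0.08, 0.10 and -0.24. The 95% interval of Ids ran from -0.11 to 0.26. Arsb was lower in the bone marrow array of all 4 mice but its groups overlapped (adjusted p = 0.13), and its second probe set gave the same difference of -0.24.

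The list of lipid hydrolases held both the largest rise and the 1 fall of the set. That fall was in Ppt1, listed here although it cleaves palmitate from proteins. Pla2g15, the lysosomal phospholipase A2, had 808, 1273, 1002 and 873 in bone marrow, against 268, 255, 280 and 215 in spleen. The lowest bone marrow array was far above the highest spleen array, and the mean was 3.85-fold higher (95% interval 3.15 to 4.70, limma adjusted p = 3.4e-07). Lipa, the acid lipase that frees cholesterol from cholesteryl esters, had 3839, 4203, 4113 and 3712 in bone marrow, against 2040, 2063, 2351 and 2087 in spleen (1.86-fold, adjusted p = 3.8e-06). Its replicates were tight in both groups. Asah1, the acid ceramidase, read 3177, 3663, 3179 and 3208 in bone marrow and 2393, 2173, 2453 and 2523 in spleen (1.39-fold, adjusted p = 0.0011). For Smpd1, the acid sphingomyelinase, the values were 313, 434, 268 and 402 in bone marrow, against 250, 258, 243 and 241 in spleen. Spleen arrays were nearly equal and bone marrow arrays spread (0.49 ± 0.13 SE, adjusted p = 0.019), and the call of Smpd1 was lost when bone marrow replicate 2 was left out (adjusted p = 0.053) or replicate 4 (adjusted p = 0.057).

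Ppt1, which cleaves palmitate from proteins and whose loss causes a neuronal storage disease, moved the other way. Its intensities were 2049, 2351, 2207 and 2152 in bone marrow, against 3446, 3550, 3174 and 3312 in spleen. Every bone marrow array was below every spleen array. Ppt1 was 1.54-fold lower in bone marrow (log2 difference -0.62 ± 0.08 SE, limma adjusted p = 6.6e-05), with differences within a mouse from -0.75 to -0.52.

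Of 4 activators and cholesterol carriers 2 were higher and none was lower. Npc2, the soluble protein that carries cholesterol to the membrane, had 4084, 3729, 3823 and 3766 in bone marrow, against 1775, 1771, 1863 and 2062 in spleen. It was 2.06-fold higher, with no overlap (1.05 ± 0.08 SE, limma adjusted p = 8.2e-07). Npc1, the membrane protein that receives cholesterol from Npc2, had 1293, 1457, 1274 and 1182 in bone marrow and 1436, 1268, 1408 and 1107 in spleen. Its groups were interleaved, with geometric means of 1298 in both, and the 95% interval of the log2 difference ran from -0.22 to 0.22. Psap, the precursor of the saposins that present sphingolipids to hydrolases, had 15867, 16353, 15337 and 15568 in bone marrow, against 12385, 11879, 12171 and 11589 in spleen (1.31-fold, adjusted p = 0.0013). Gm2a, the activator that serves Hexa, had 8695, 8929, 8089 and 9022 in bone marrow, against 10028, 9121, 9442 and 9251 in spleen. All bone marrow values of Gm2a were the lower ones, but the difference of -0.12 ± 0.07 SE did not pass (adjusted p = 0.35). Whether Npc2 differed from Npc1, or Psap from Gm2a, in its change was not tested.

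Grn and Tpp1 were both higher. Grn encodes progranulin, a secreted protein that is cut into granulins in lysosomes, and read 6786, 7167, 6240 and 6393 in bone marrow and 4223, 3894, 3917 and 3874 in spleen. It was 1.67-fold higher (0.74 ± 0.08 SE, limma adjusted p = 1.4e-05). Tpp1, a tripeptidyl peptidase, read 640, 825, 692 and 670 in bone marrow and 418, 427, 444 and 434 in spleen, a 1.63-fold rise with tight spleen values (adjusted p = 7.0e-05).

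Membrane proteins were higher in 5 of 6 cases and lower in none. Lamp1, 1 of the chief glycoproteins of the lysosomal membrane, had 2477, 2497, 2411 and 2243 in bone marrow, against 1170, 1110, 1196 and 1349 in spleen. Its paralog Lamp2, which also takes part in autophagy, had 3542, 4150, 3974 and 3572 in bone marrow, against 1788, 1655, 2143 and 2047 in spleen. Both stood 2.0-fold higher after rounding, with well separated groups (log2 differences 1.00 ± 0.08 SE for Lamp1 and 1.00 ± 0.10 SE for Lamp2, limma adjusted p = 1.8e-06 and 8.4e-06). Before rounding Lamp1 (geometric means 2405 and 1203) fell just under the 2-fold line used above and Lamp2 (3800 and 1898) just over it. Scarb2, the receptor that brings glucocerebrosidase to lysosomes, had 1053, 1201, 1038 and 1121 in bone marrow, against 675, 572, 599 and 670 in spleen (1.76-fold, adjusted p = 1.6e-05). Cd68, a relative of the Lamp proteins much used as a macrophage stain, read 3589, 4184, 3713 and 3699 in bone marrow and 2452, 2200, 2416 and 2219 in spleen (1.63-fold, adjusted p = 3.1e-05). None of these groups overlapped.

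Tcirg1, a membrane subunit of the proton pump, and Mcoln1, a calcium channel of the lysosomal membrane, differed less than the other membrane proteins in size. Tcirg1 was 1.21-fold higher (0.28 ± 0.08 SE, limma adjusted p = 0.023). That call ended with the mouse as a replicate block (adjusted p = 0.059), with quantile normalization (0.12), and when bone marrow replicate 1 or 3 or spleen replicate 4 was left out (adjusted p from 0.053 to 0.073). Mcoln1 had 1613, 1481, 1645 and 1424 in bone marrow, against 1369, 1302, 1387 and 1377 in spleen. Its groups did not overlap, but the difference of 0.18 ± 0.08 SE did not pass (adjusted p = 0.15).

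**Figure D3:**
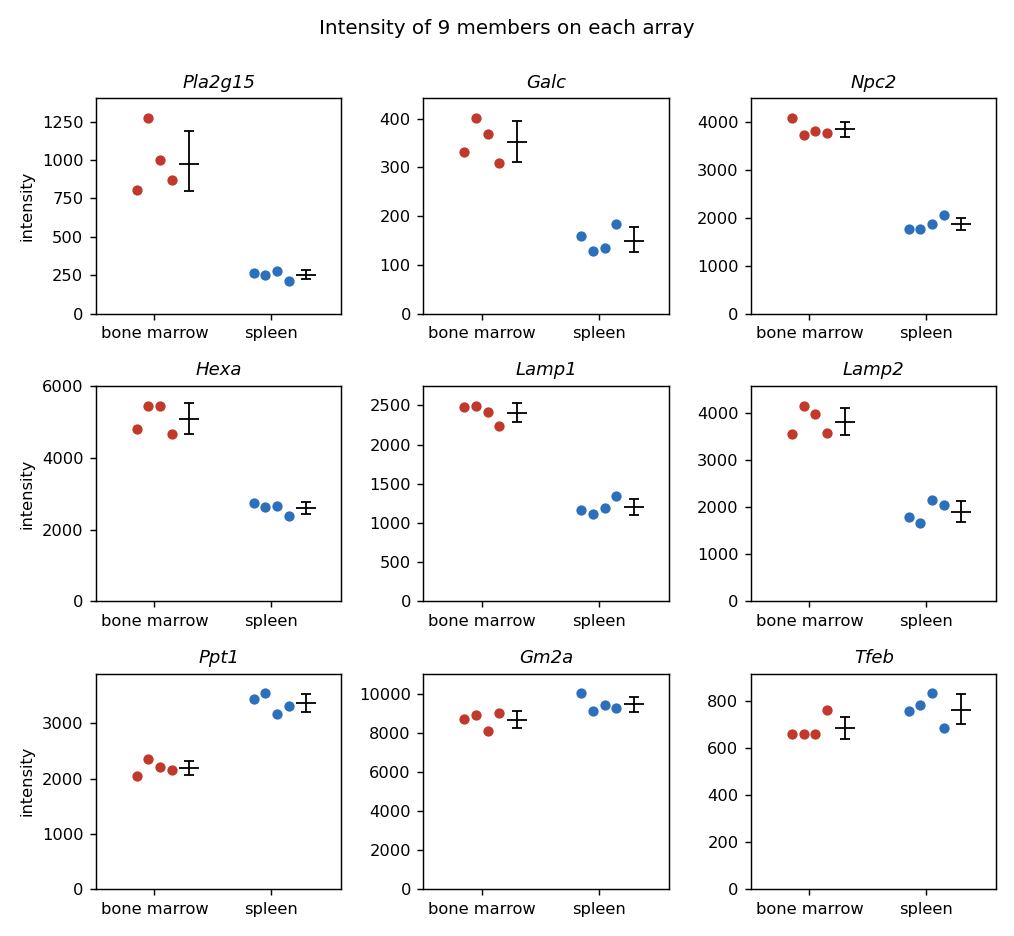
Dots are the intensities of 9 members on each array, in order of replicate, and the bars beside them give the geometric mean with 1 SD of the log2 values (n = 4 per group); axes start at 0. Pla2g15, Galc, Npc2, Hexa, Lamp1 and Lamp2 are clearly higher in bone marrow, Ppt1 is lower, Gm2a is narrowly separated and Tfeb overlaps.

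Tfeb, the transcription factor of the set, did not pass the test, whereas its relatives Mitf and Tfec were higher in bone marrow. It had 662, 661, 661 and 762 in bone marrow, against 757, 785, 835 and 688 in spleen. The groups overlapped through bone marrow replicate 4 and spleen replicate 4, and the log2 difference was -0.16 ± 0.09 SE (limma adjusted p = 0.29, 95% interval -0.35 to 0.03). Its relative Mitf had 543, 601, 587 and 445 in bone marrow, against 135, 176, 188 and 200 in spleen, and was 3.12-fold higher (adjusted p = 1.2e-06). These values come from the brighter of the 2 probe sets of Mitf. With its probe sets averaged, the log2 difference was 1.25 rather than 1.64, and Mitf still passed. The size of the Mitf rise thus depends on the probe set. Tfec, another relative, was 1.58-fold higher (limma adjusted p = 0.016), but its groups overlapped. It had 154, 254, 208 and 148 in bone marrow, against 106, 115, 104 and 154 in spleen. The call of Tfec was lost when either bone marrow replicate 3 (limma adjusted p = 0.051) or spleen replicate 3 (0.054) was left out, and with log2(intensity + 50) (0.052). Tfe3, with geometric means of 829.7 in bone marrow and 675.3 in spleen, did not pass (0.30 ± 0.10 SE, adjusted p = 0.068). Macrophages are known to express Mitf and Tfec, and macrophage markers were higher in the same arrays, as given above. The part of such cells in the Mitf and Tfec differences was not tested.

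Members that act on sphingolipids, glycosaminoglycans or glycoprotein sugar chains were also sorted by substrate, with each placed in 1 class. Gaa, which breaks down glycogen and did not pass, was in none of these classes. This grouping was made after the values were seen and so is given without a test. By class, 9 of 10, 2 of 7 and 1 of 4 were higher. Of 10 genes for sphingolipids (Hexa, Gla, Glb1, Neu1, Galc, Arsa, Asah1, Smpd1, Psap and Gm2a) 9 were higher, with a median log2 difference of 0.48. Of 7 genes for glycosaminoglycans (Gusb, Naglu, Idua, Ids, Sgsh, Galns and Arsb) 2 were higher, with a median of 0.11. Of 4 genes for glycoprotein sugar chains (Man2b1, Manba, Fuca1 and Aga) 1 was higher, with a median of -0.02. Some of these enzymes act on more than 1 class, so the counts depend on where each was placed. Neu1 also acts on glycoprotein sugar chains and Glb1 also on keratan sulfate, a glycosaminoglycan. Both were higher and were counted for sphingolipids only. The calls of Glb1, Smpd1 and Galns were lost in some of the checks given above.

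A wider set of lysosome genes showed the same prevailing direction. Of 86 further genes in 5 lists, chosen with earlier results of these data known, 75 were measured on a probe set of their own. Of these, 39 were higher in bone marrow and 1 lower, with a median log2 difference of 0.30. Over all genes, 9.26% were higher and 9.2% lower. With the dimmest 40% of genes left out, which kept 73 of the 75, the share of genes called higher was 14.5%. The count of wider genes higher was 31 without bone marrow replicate 2, and also without bone marrow replicate 3. The 1 lower gene was Sort1, and without spleen replicate 4 Gga2, an adaptor of enzyme sorting in the Golgi, was lower too (-0.38, limma adjusted p = 0.017), which made 2.

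Among other hydrolases 11 of 17 were higher. Pld3, a nucleic acid exonuclease of lysosomes, had 951, 1730, 1060 and 601 in bone marrow, against 287, 179, 235 and 207 in spleen. It was 4.53-fold higher although bone marrow arrays differed by more than they did for any member named so far (2.18 ± 0.25 SE, limma adjusted p = 3.3e-05). Lyz2, the lysozyme of myeloid cells, was 3.26-fold higher (adjusted p = 1.1e-07), and Pcyox1, which breaks down prenylated cysteine, 2.18-fold higher (adjusted p = 4.2e-06). Among other membrane proteins 12 of 18 were higher. They included the tetraspanin Cd63 (1.46 ± 0.19 SE, adjusted p = 8.1e-05), the peptide transporter Slc15a3 (2.16-fold, adjusted p = 2.5e-06) and Laptm4a (1.61-fold, adjusted p = 2.3e-05).

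Some subunits of the proton pump were higher in bone marrow. Of 16 measured subunits and accessory proteins besides Tcirg1, 8 were higher and none lower. Atp6v0d2, a d subunit form known from osteoclasts and macrophages, had 95, 286, 124 and 243 in bone marrow, against 30, 36.7, 33.8 and 38.5 in spleen. It was higher in bone marrow (log2 difference 2.29 ± 0.28 SE, limma adjusted p = 5.6e-05), with bone marrow replicates 2 and 4 well above replicates 1 and 3. Its spleen values and those of bone marrow replicates 1 and 3 lay below the median of every array. The gene was not tested where the dimmest 40% of genes were left out. With log2(intensity + 50) its difference was 1.4 (limma adjusted p = 0.0042), so the size of the rise depends on the scale. Its widely expressed counterpart Atp6v0d1 had a log2 difference of 0.13 (adjusted p = 0.43). Atp6v1b2 and Atp6v0a1 were 2.14-fold and 2.07-fold higher (adjusted p = 1.4e-05 and 2.2e-05). Subunits Atp6v1d, Atp6v1f, Atp6v0e and Atp6v1h had differences between -0.10 and -0.05 and did not pass.

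Of 9 genes for the delivery of enzymes to lysosomes, 4 were higher and 1 was lower. Gnptab and Gnptg, subunits of the enzyme that makes the mannose 6-phosphate tag, were 1.26-fold and 1.25-fold higher (limma adjusted p = 0.012 and 0.033). Gnptg no longer passed when an array was left out, be it replicate 2 or 4 of bone marrow, or 1, 3 or 4 of spleen (adjusted p from 0.069 to 0.10), nor with median centring (0.051). Igf2r, a receptor of that tag, was 1.35-fold higher (adjusted p = 0.011). Sort1, sortilin, a sorting receptor that works without the tag and that also takes up progranulin, had 568, 784, 538 and 703 in bone marrow, against 1035, 927, 1152 and 901 in spleen. It was lower in every bone marrow array (-0.64 ± 0.13 SE, adjusted p = 0.0025). Of 15 genes of lysosome gene control 4 were higher and none lower: Mitf and Tfec, given above, Flcn, which acts with the nutrient-sensing machinery of the lysosome (1.56-fold, adjusted p = 3.2e-04), and Lamtor4, a subunit of the Ragulator complex, at 0.30 ± 0.09 SE (adjusted p = 0.031). The Lamtor4 value is given because it completes the count, and it was chosen after its value was seen.

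**Figure D4:**
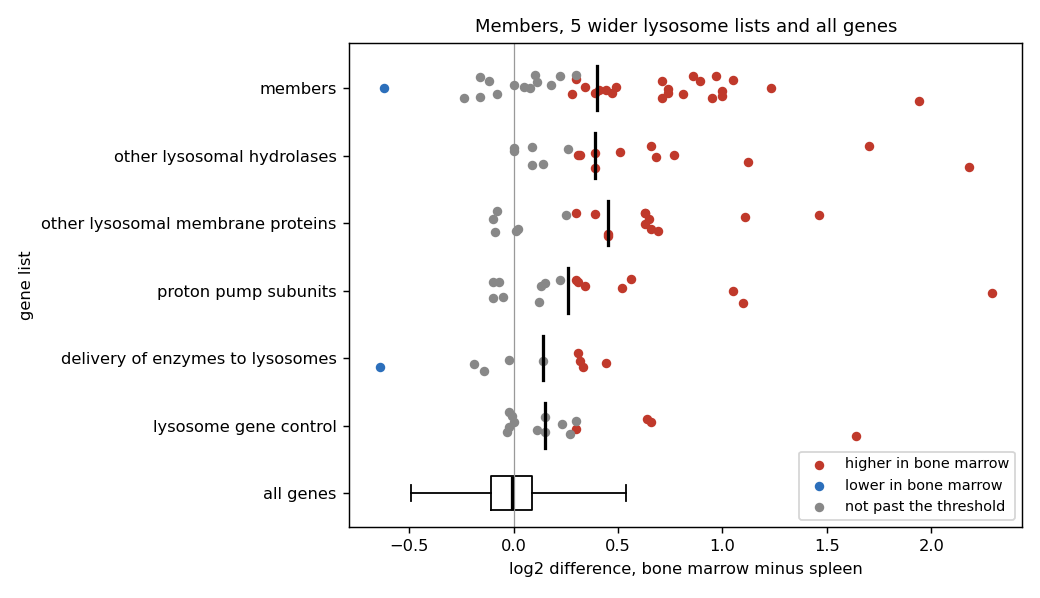
Each dot is 1 gene placed by its log2 difference, bone marrow minus spleen, with vertical bars at the list medians; the box shows all genes by their 25th and 75th percentiles (-0.11 and 0.09) with whiskers at the 5th and 95th (-0.49 and 0.54). Members and the lists of other hydrolases and membrane proteins have medians between 0.39 and 0.45, while the delivery and control lists have medians of 0.14 and 0.15.

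Arrays of a group also differed in the level of the members. Bone marrow replicate 2 held the highest bone marrow value of 25 of the 36 members (69.4%), against 19.7% of all genes. Averaged over the members, the log2 intensity of replicates 1 to 4 was 10.41, 10.59, 10.45 and 10.46 for bone marrow, against 10.06, 9.99, 10.07 and 9.96 for spleen. Bone marrow replicate 2 thus stood above the other bone marrow arrays, while all spleen arrays were lower. The same array had the highest macrophage marker mean of its group (10.88, against 10.09 to 10.50 in the other 3) and the lowest neutrophil marker mean (10.63, against 10.96 to 11.08). Bone marrow replicate 4 had the lowest macrophage marker mean (10.09) and a member mean of 10.46, while replicate 1 read 10.26 and 10.41. The part of other cells in these differences between arrays was not tested. In spleen, replicate 4 held the lowest value of 19 members (52.8%), against 27.1% of all genes. With bone marrow replicate 2 and spleen replicate 4 both left out, 19 members were higher and 1 lower, and the median log2 difference of the members was 0.36.

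**Figure D5:**
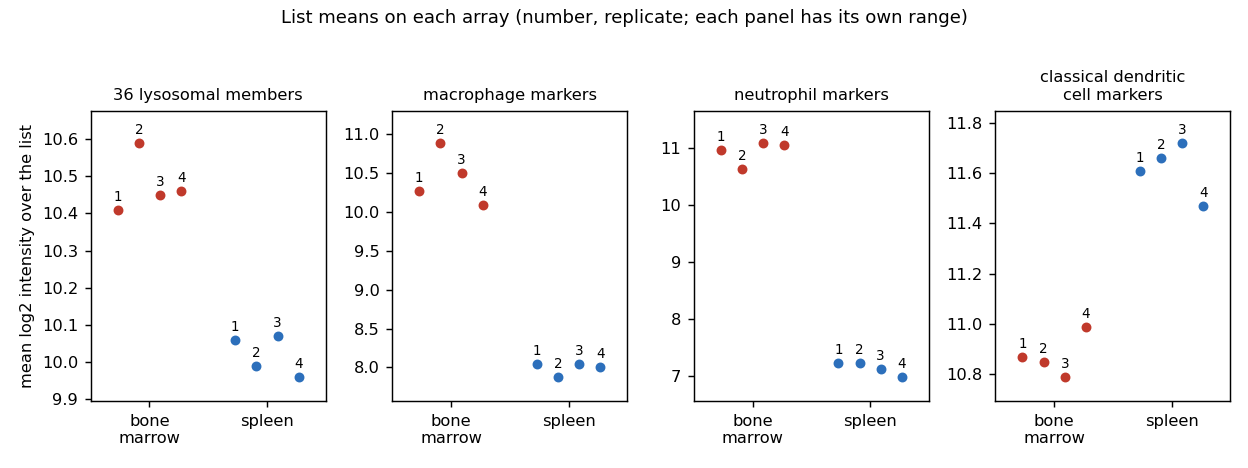
Dots are the mean log2 intensity over 36 lysosomal members, 12 macrophage, 10 neutrophil and 8 classical dendritic cell markers on each array, numbered by replicate, with a separate axis range in each panel. Bone marrow arrays are higher for the first 3 lists and lower for the fourth, and among the bone marrow arrays replicate 2 is highest for the members and macrophage markers and lowest for neutrophil markers.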

How the data were processed

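The authors deposited 1 linear intensity per probe set and array. The submitters' processing notes name Affymetrix Expression Console 1.4, and the sources used here do not give the background correction, normalization or summarization. Array medians lay between 125.1 and 135.0. Of 35556 probe sets, 21789 named 1 gene in the platform annotation of GEO; the brightest per gene was kept (19938 genes). The test on log2 values was limma's (version 3.58.1, R 4.3.3; lmFit and eBayes, no dim filter), checked on simulated data, with levels as geometric means. Replicates are separate mice, and same-numbered arrays come from 1 mouse per the labels; deviations of the paired arrays correlated at 0.0962, -0.0877, -0.178 and -0.0544. The mouse was left out of the main comparison and used as a replicate block beside it. Alternatives were quantile normalization, median centring, a dim filter, averaged probe sets, an intensity trend, array weights, log2(intensity + 50) and leaving out arrays. Members, the wider lists and the 9 marker lists were chosen with earlier results of these data known. Per-array values are given for up to 4 members of each role with the largest fold past the threshold, each lower member, Tfeb, Lamp1 and Lamp2, and up to 3 wider genes per list and direction are named; other values shown were chosen after they were seen. Array intensities have no read depth, and the number of arrays limits their precision. Promoter sequences are from RefSeq (GRCm38.p6).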

Additional observations from a re-analysis of the deposited data

Results flagged for a closer look

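Among 124 groups of 4 arrays (62 genes in 2 tissues), 7 had 1 array far from the other 3, where chance gives about 1 in 20. The number flagged is thus near what chance gives. In bone marrow, replicate 2 was high for Aga (654, others 529 to 547) and Asah1 (3663, others 3177 to 3208), and replicate 4 was high for Tfeb (762, others 661 to 662). In spleen, replicate 3 was high for Lipa (2351, others 2040 to 2087), replicate 1 for Grn (4223, others 3874 to 3917) and replicate 4 for Laptm4a (2445, others 2277 to 2301). The neutrophil marker S100a8 was low in spleen replicate 4 (117, others 191 to 202).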

How the results depend on the processing

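Of 23 members past the threshold, 19 passed under all 17 alternatives; Glb1, Galns, Smpd1 and Tcirg1 did not. Leaving out 1 array gave 19 to 22 members higher and 1 lower, a member median of 0.38 to 0.43, 31 to 37 wider genes higher and 1 to 2 lower, and 1608 to 1759 of all genes higher and 1468 to 1820 lower. With bone marrow replicate 2 and spleen replicate 4 left out together, chosen after seeing the data, 26 wider genes were higher and 2 lower, with fewer arrays, and Igf2r and Gnptab lost their calls (limma adjusted p = 0.072 and 0.082). With the mouse as a replicate block 20 members and 36 wider genes were higher and 1 of each lower; Glb1 and Tcirg1 were the members that lost their call. Differences near 0 changed sign without passing: Fuca1 was -0.01 with quantile normalization and without bone marrow replicate 2 or 3, and -0.14 without the pair, with a range of -0.08 to 0.17 when single arrays were left out; Sgsh was -0.06 without the pair; Aga ranged from -0.16 to 0.01; Npc1 was 0.01 with median centring and ranged from -0.08 to 0.05. Gusb passed with log2(intensity + 50) (limma adjusted p = 0.032). The cause of these changes was not tested. With no detection call, signal over background is unknown for dim genes such as Atp6v0d2, in spleen and in bone marrow replicates 1 and 3.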
